A study of Mus musculus with 91 samples.

Results

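The osteocalcin gene family of the mouse comprises Bglap, Bglap2 and Bglap3, and all 3 genes had a row in the table of 16580 genes. They were followed by symbol through 91 single bone marrow cells of C57BL/6 mice, each sorted into a well and sequenced as its own Smart-seq2 library, a method that makes full-length cDNA. All cells were sorted as stained for the adhesion molecule VCAM1, found on marrow stroma, and by a vibrant dye used against debris, and as negative for the blood cell markers CD45, Ter119, CD41 and CD71. The gates were VCAM1+CD61+ with 39 cells (called CD61+ here), VCAM1+CD61- with 40 cells (CD61-), and VCAM1+ without a split on CD61 with 9 cells, CD61 being the integrin beta 3 chain. A further 3 cells have a title that names one gate and a gate label that names the other, and they entered no comparison of gates. Each plate held 1 gate, with 17 and 22 cells on the CD61+ plates against 24 and 16 on the CD61- plates, which means that plate and gate cannot be told apart. Of the VCAM1+ cells, 8 carried one plate name and cell 9 another, whereas the series' design names 1 such plate.

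Totals lay between 507713 and 6702475 counts in a cell, and the gate medians were 1887613 for CD61+, 2368345 for CD61- and 4004927 for VCAM1+. No animal is named in the labels, so each gate was 1 sample and no test was run. Intervals are exact 95% intervals, and those on counts of reads treat each read as independent. Amplified reads are not independent molecules, so these intervals understate even the counting error. They also leave out the spread between cells. As a check of the sort, Vcam1 was counted in 84 of 91 cells and Cxcl12, a chemokine of marrow stroma, in 83. Ptprc, which encodes CD45, was counted in 13 cells and Cdh5, an endothelial cadherin gene, in 4. The VCAM1 channel went against the label of the VCAM1+ gate, where 6 of 9 cells were at an intensity of 158 or below. VCAM1+ cell 5, which stood apart in its family counts, was at -89, the lowest of the 91 cells. The VCAM1 intensity of the gates split on CD61 was 440 to 2747 in CD61+ and 352 to 2124 in CD61- cells. The forward scatter width of VCAM1+ cell 5 was 101323, the second highest after CD61- cell 2 at 102319. Levels are given as CPM, the counts of a gene scaled to 1000000 counts of the cell or gate.

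Osteocalcin is a small secreted protein of osteoblasts and osteocytes. Its glutamate residues are carboxylated by a vitamin K-dependent enzyme, which lets the protein bind bone mineral, and its messenger RNA is a marker of late osteoblast differentiation. In the mouse, Bglap and Bglap2 are the copies described from bone, and Bglap3, also called osteocalcin-related gene, was described from kidney and other tissues.

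The 3 genes lie on the minus strand of chromosome 3 within 15.8 kb (build GRCm38, GENCODE vM21). Bglap is at chr3:88383501-88384464, Bglap2 at chr3:88377736-88378699 and Bglap3 at chr3:88368616-88372743, and the transcript used here of each has 4 exons and 288 coding bases. The coding sequences are shown because the split of reads between members rests on few bases. They were read 5′ to 3′ from the GENCODE transcripts, with capitals at the 13 positions where the members are not all alike.
Bglap: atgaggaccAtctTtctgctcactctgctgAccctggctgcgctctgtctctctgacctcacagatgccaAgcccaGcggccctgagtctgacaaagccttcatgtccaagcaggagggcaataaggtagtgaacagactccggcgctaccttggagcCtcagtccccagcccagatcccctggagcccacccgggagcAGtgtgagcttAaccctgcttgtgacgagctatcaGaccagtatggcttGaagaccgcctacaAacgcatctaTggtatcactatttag
Bglap2: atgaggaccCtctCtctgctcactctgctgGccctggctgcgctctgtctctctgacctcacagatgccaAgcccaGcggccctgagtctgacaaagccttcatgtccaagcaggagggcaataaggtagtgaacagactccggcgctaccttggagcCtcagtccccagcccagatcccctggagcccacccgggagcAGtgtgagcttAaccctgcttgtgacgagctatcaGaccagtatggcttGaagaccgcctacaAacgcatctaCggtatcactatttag
Bglap3: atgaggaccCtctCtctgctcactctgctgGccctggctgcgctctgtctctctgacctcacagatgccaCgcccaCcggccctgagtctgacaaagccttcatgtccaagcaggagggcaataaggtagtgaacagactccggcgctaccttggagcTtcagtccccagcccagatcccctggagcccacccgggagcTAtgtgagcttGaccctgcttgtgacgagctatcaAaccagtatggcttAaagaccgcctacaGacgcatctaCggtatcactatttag
Bglap2 and Bglap differ at 4 coding positions, namely 10, 14, 31 and 273 counted from 1 at the first base of the start codon, and are identical over a run of 241 bases. Bglap3 differs from Bglap at 13 coding positions and from Bglap2 at 9. Whole transcripts were also compared by their 31-base words, the unit that kallisto matches by default. Of the words of the Bglap transcript, 19.5% occurred in no other gene, against 4.76% (21 words) for Bglap2 and 61.1% for Bglap3. Of the Bglap2 words, 74.8% also occurred in Bglap and 55.8% in Bglap3. The estimated counts of Bglap2 therefore rest on few sequences of its own, and the split between members is less certain than their sum.

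The promoter of Bglap is shown because the transcription factors that act on it are in the lists described below. It is the 250 bases before the RefSeq start (GRCm38.p6, chr3:88384467-88384716, minus strand), with capitals at a TATAAA match 27 bases and an ACCACA match, the core bound by Runx factors, 132 bases before the start.
Bglap: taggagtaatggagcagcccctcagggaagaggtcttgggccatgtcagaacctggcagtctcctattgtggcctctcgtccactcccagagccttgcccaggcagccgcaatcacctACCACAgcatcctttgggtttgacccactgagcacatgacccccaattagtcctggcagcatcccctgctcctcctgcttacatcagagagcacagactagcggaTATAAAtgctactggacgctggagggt
Searched on both strands, ACCACA was in 14.1% and TATAAA in 12.4% of 32851 promoter windows of this length, and the motifs do not overlap. The 3 windows listed for Bglap3 held neither motif. The E-box CANNTG was in the Bglap window and in each Bglap3 window, as in 66.2% of all windows. Bglap2 had no window in the table used. A match is a description of letters and not a site.

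Osteocalcin counts were found in a minority of the cells and at very unequal levels. A count of any member was present in 30 of 91 cells. These were 24 of the 39 CD61+ cells, 4 of the 40 in the CD61- gate and 2 of the 9 VCAM1+ cells, with 0 of the 3 cells of conflicting labels. At a summed level of 100 CPM or more, 26 cells remained, and these are called carriers below. Only 4 cells lay between 0 and 100 CPM, the highest at 78.3 CPM, and the lowest carrier was at 134 CPM. Bglap was counted in 23 cells, Bglap2 in 24 and Bglap3 in 28.

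The share of carriers was higher in CD61+ than in CD61- cells. Carriers made up 53.9% of CD61+ cells (21 of 39; interval 37.2 to 69.9%) and 10% of CD61- cells (4 of 40; 2.79 to 23.7%). These intervals cover the counting of cells in 1 sample a gate and are no test of the gates. By plate, carriers were 6 of 17 and 15 of 22 CD61+ cells, against 2 of 24 and 2 of 16 CD61- cells. The intervals of CD61+ plate 1 (14.2 to 61.7%) and CD61- plate 2 (1.55 to 38.4%) overlapped. When each cell was thinned to 500000 counts, the carriers were again 21 CD61+ and 4 CD61- cells. Each member was counted in a share of CD61+ cells over 30 percentage points above its share of CD61- cells. This level was chosen after the values were seen, and 1.43% of the 14063 genes compared passed it. That share cannot weigh the 3 members. Genes counted in as few as 5 cells are among those compared, and the members share carriers and sequence. Bglap was counted in 46.2% of CD61+ and 10% of CD61- cells, Bglap2 in 48.7% and 10%, and Bglap3 in 56.4% and 10%. On CD61+ plate 1 the shares were 23.5, 41.2 and 35.3%, against 12.5% for each member on CD61- plate 2. No member differed by 30 points between these plates.

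**Figure D1:**
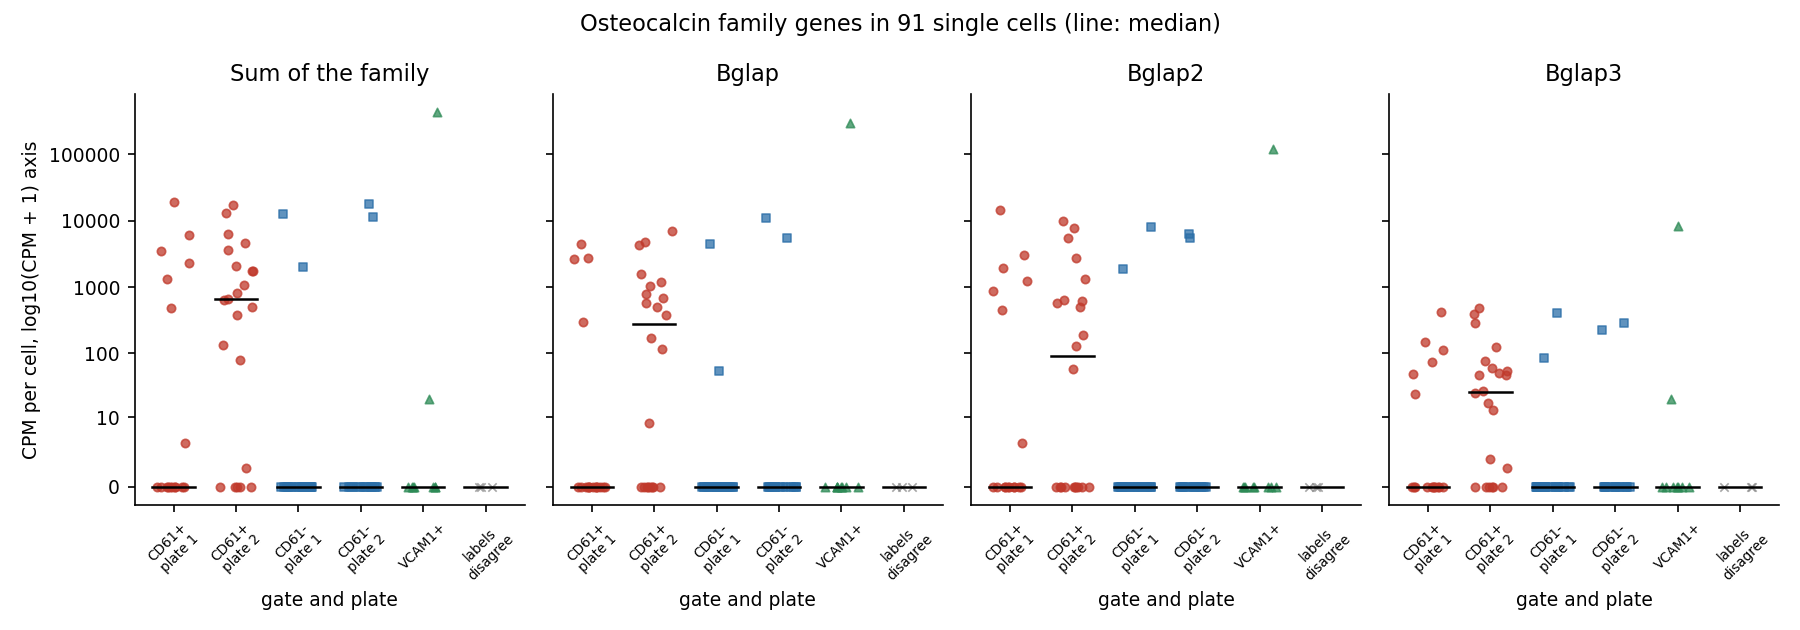
CPM per cell of the family sum and of each member, on a log10(CPM + 1) axis, by gate and plate, with 1 point per cell and a line at the median. Both CD61- plates have 2 cells each above 0, all at 2029 CPM or more in the sum, and VCAM1+ cell 5 stands above all other cells.

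The level within cells with a count did not follow the same order. Summed family CPM among cells with a count ran from 0.935 to 19338 with a median of 1548 in the 24 CD61+ cells. The 21 carriers among these began at 134 CPM. In the 4 CD61- cells, all of them carriers, summed family CPM was 17481, 12766, 11226 and 2029. At 10000 CPM or more there were 3 of 39 CD61+ cells and 3 of 40 CD61- cells, a near equal share. The few CD61- carriers thus lay within the range of the CD61+ carriers, mostly near its top.

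Counts summed over each gate combine the share of carriers with their level, and the gates differed less in these sums. The family took 0.229% of all counts in CD61+ cells and 0.130% in CD61- cells, a ratio of 1.76 (1.75 to 1.78). In CD61- cells, 95.1% of the family counts came from 3 cells, while the top 3 CD61+ cells gave 54.8% of theirs.

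Bglap, a copy expressed in bone, had 840 CPM in the CD61+ sum and 622 CPM in the CD61- sum, a log2 ratio of 0.43 (0.42 to 0.45). By plate it was 736 and 948 CPM in CD61+ cells, against 206 and 1183 CPM in CD61- cells, so the plates of the gates overlapped. Without CD61- cells of plate 1 the log2 ratio was -0.49. Without CD61- cell 29 it was 1.33 and without CD61- cell 33 it was 0.96, so single cells set its size.

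Bglap2, the second bone copy, had 1387 CPM in the CD61+ sum and 649 CPM in the CD61- sum, a log2 ratio of 1.10 (1.08 to 1.11). Its plates did not overlap, with 1385 and 1390 CPM in CD61+ cells against 466 and 896 CPM in CD61- cells. Bglap3, the copy described from kidney, had 66.8 CPM in the CD61+ sum and 29.9 CPM in the CD61- sum, a log2 ratio of 1.16 (1.09 to 1.23). Its plates were at 56.4 and 77.6 CPM in CD61+ cells against 23.4 and 38.8 CPM in CD61- cells, again without overlap. Without CD61- cell 2 the log2 ratio of Bglap3 was 1.76. Thus 2 of 3 members were at least 2-fold higher in the CD61+ sum, a rule that 19.4% of the 14063 genes also met. The count was 0 of 3 without any one of CD61+ cells 1, 3 and 31, and 1 of 3 without CD61+ cell 36. It was 3 of 3 without CD61- cell 29. Without CD61+ cell 31, for example, the log2 ratio was 0.71 for Bglap2 and 0.96 for Bglap3. The lower of the CD61+ plates lay above the higher of the CD61- plates for the same 2 members, as it did for 20.0% of all genes compared.

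A single VCAM1+ cell held most of the osteocalcin counts of the series. In VCAM1+ cell 5, Bglap had 1796331 counts, Bglap2 had 727910 and Bglap3 had 50850, together 42.7% of the 6037042 counts of the cell. This cell alone gave 89.7% of the family counts of all 91 cells, and its 426548 CPM was 22.1 times that of the next cell, CD61+ cell 31. The VCAM1+ sum was 74120 CPM with this cell and 3.66 CPM without it. The 7 other cells with the same plate name had 0 family counts among 23427073 counts. The only other VCAM1+ cell with a count was cell 9, with 105 counts of Bglap3 and none of Bglap or Bglap2.

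The other leading genes of VCAM1+ cell 5 were also of bone matrix. Bglap and Bglap2 were its first and second genes by CPM, followed by Sparc, which encodes osteonectin, at 81209 CPM, Col1a1 at 25753 CPM and Col1a2, the second chain of type I collagen, at 17741 CPM. Serpinf1, which encodes pigment epithelium-derived factor, followed at 11779 CPM. No other cell reached these levels of the 6 genes. Spp1, which encodes osteopontin, was at 3349 CPM in this cell, below 26 of the other 90 cells. Ibsp, which encodes bone sialoprotein, was at 1911 CPM, below 62 of the other 90 cells. Cxcl12 was at 26.7 CPM and Dmp1, a matrix gene of osteocytes, at 0.166 CPM. Its CD200 intensity was 6042 and its CD61 intensity 1931, the highest of the 9 VCAM1+ cells in both channels. Vcam1 itself was at 0 CPM in this cell.

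The split between Bglap and Bglap2 varied across its whole range from cell to cell. Over all 91 cells, Bglap2 made up 31.8% of the counts of the pair (31.7 to 31.9%), a value set by VCAM1+ cell 5, where it was 28.8%. Without that cell it was 57.7%. In the gate sums Bglap2 was 62.3% of the pair in CD61+ cells and 51.1% in CD61- cells. In 27 cells the pair had 100 counts or more, and there the share of Bglap2 ran from 0 to 100% with a median of 62.3%. In CD61+ cells the range was 0 to 100% with a median of 64.1%, and in the 4 CD61- cells it was 97.2, 64.1, 50.0 and 37.2%. The CD61- values lay inside the range of the CD61+ values.

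Of these 27 cells, 19 had counts of both members, 4 had Bglap only and 4 had Bglap2 only. All 8 cells with a single member were CD61+ cells at a low or moderate family level, from 134 to 1330 CPM. The 17 cells above that level, at 1766 CPM or more, all had both members. CD61+ cell 37, for example, had 2591 counts of Bglap2 and 0 of Bglap, while CD61+ cell 2 had 1303 counts of Bglap and 0 of Bglap2. CD61+ cell 21 had 3798 counts of Bglap and 166 of Bglap2, and CD61+ cell 10 had the opposite imbalance with 854 and 7928. Cells of like level also differed, since Bglap2 was 30.0% of the pair in CD61+ cell 18 (1777 CPM) and 7.47% in CD61+ cell 12 (1766 CPM). The part of the shared sequence in these splits was not tested.

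**Figure D2:**
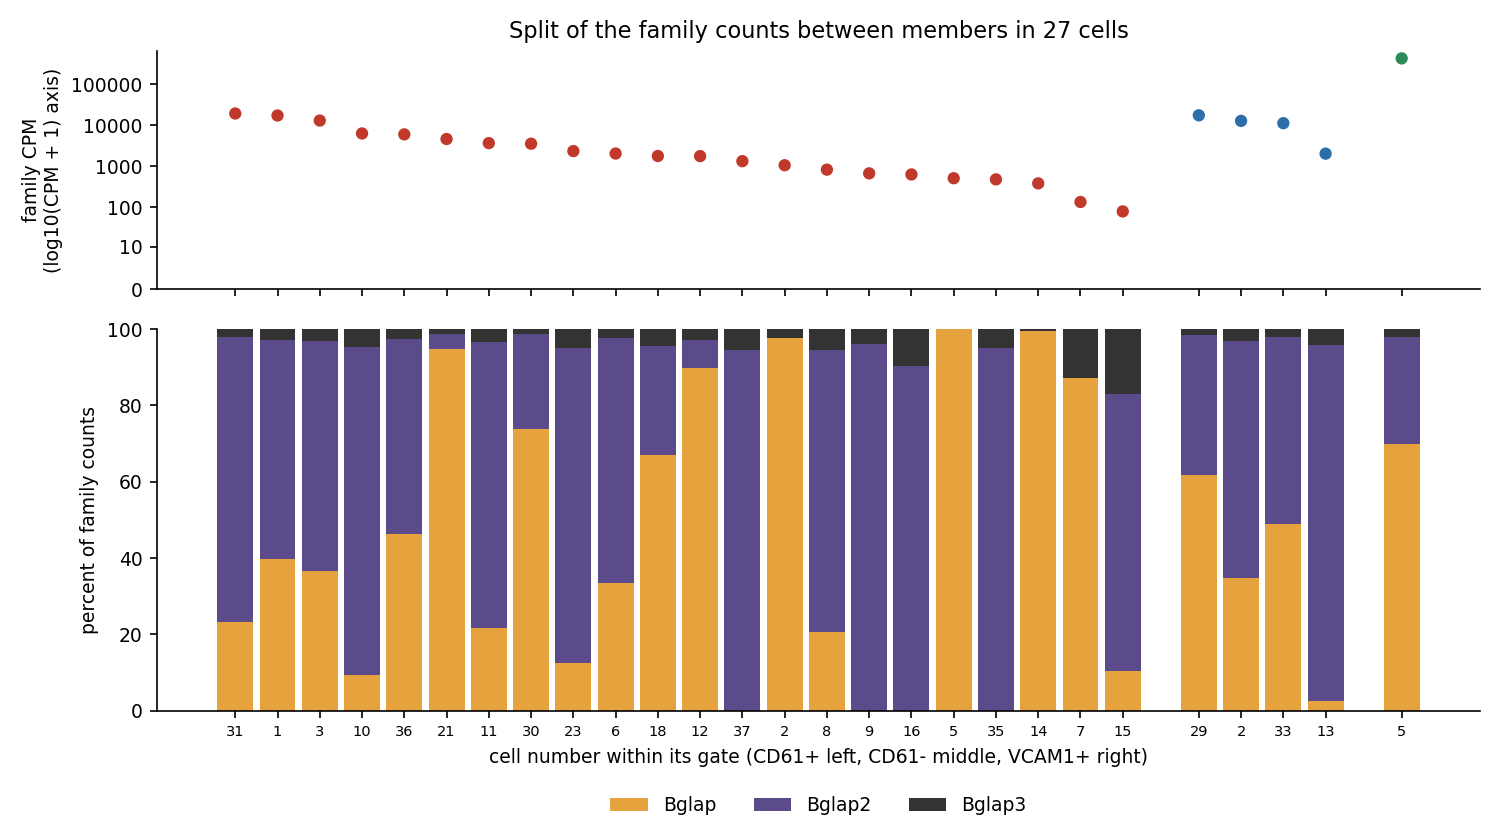
Family CPM on a log10(CPM + 1) axis (top) and the percent of family counts from each member (bottom) in 27 cells where Bglap and Bglap2 together had 100 counts or more, ordered by level within each gate. Cells with only Bglap or only Bglap2 lie between 134 and 1330 CPM, and Bglap3 is a small part of the counts in most cells.

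Bglap3 followed Bglap2 in most cells, and it also followed the sum of Bglap and Bglap2. Where Bglap2 had at least 100 counts, in 22 cells, there were 2.89 to 39.3 counts of Bglap3 for every 100 of Bglap2, with a median of 5.21 and quartiles of 4.53 and 6.71. In 17 of the 22 cells the ratio was between 3 and 8. In the 4 cells with Bglap2 only it was 4.07 to 10.6. The 2 highest ratios were in CD61+ cells 12 and 21, where Bglap was over 90% of the pair. In the 4 cells with Bglap only, Bglap3 had 0, 4, 23 and 31 counts, or 0 to 14.8 for every 100 of Bglap. The bounds of 3 and 8 were chosen after the values were seen. Across the 39 CD61+ cells, the Spearman rho of Bglap3 was 0.91 with Bglap2, 0.78 with Bglap and 0.945 with their sum. These are a description over cells that share their zeros. Per 100 counts of the pair, Bglap3 ran from 1.19 to 10.6 in the same 22 cells, with a median of 3.20. Of these cells, 11 were between 3 and 8 and 10 were below 3. Since the bounds were set on the ratio to Bglap2, the counts of 17 and 11 do not compare the spread of the ratios. The highest ratio to the pair was 8.95 times the lowest, against 13.6 times for Bglap2 alone. Whether Bglap3 follows Bglap2 or the sum was not tested. Bglap2 shares 55.8% of its words with Bglap3, and the part of this overlap in these ratios was not tested. Per kilobase of transcript (440, 471 and 717 bases), the summed level in CD61+ cells was 1909 CPM for Bglap, 2946 CPM for Bglap2 and 93.2 CPM for Bglap3. In CD61- cells the summed level per kilobase was 1414, 1378 and 41.7 CPM for the same genes, so Bglap3 was the lowest in both gates.

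**Figure D3:**
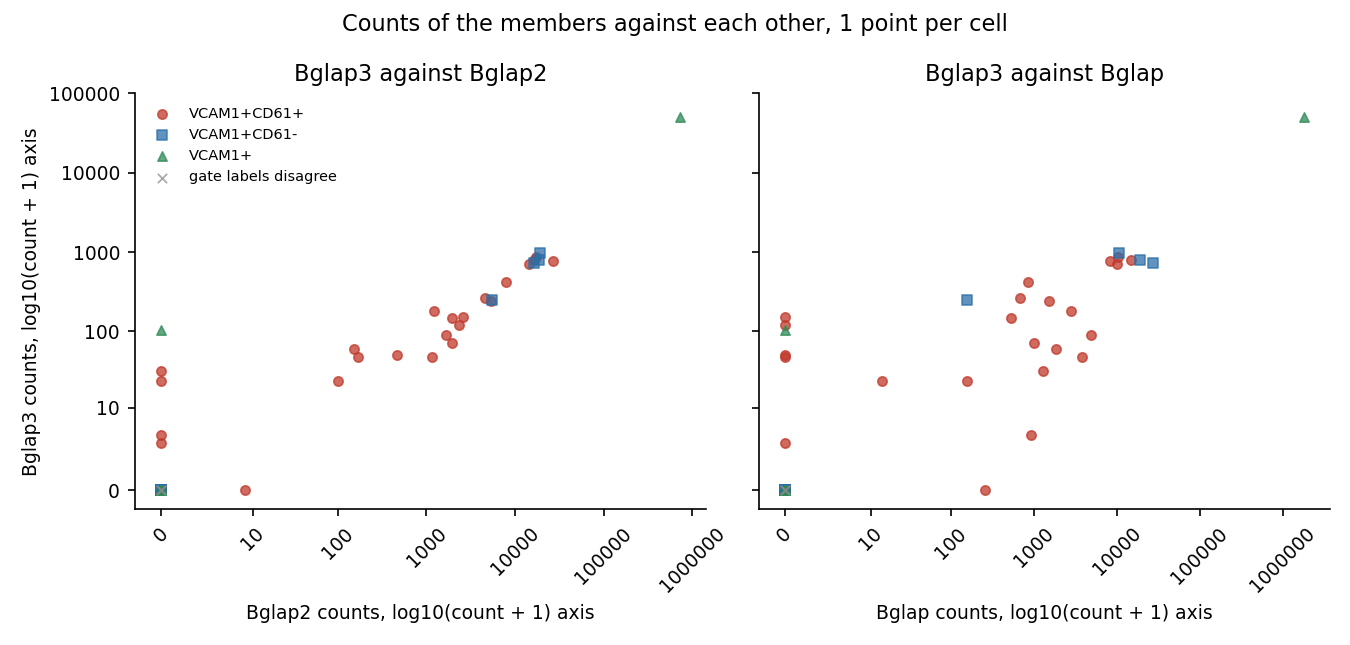
Bglap3 counts against Bglap2 counts (left) and Bglap counts (right), 1 point per cell, on log10(count + 1) axes. In cells with at least 100 Bglap2 counts there is a median of 5.21 Bglap3 counts per 100 Bglap2 counts, and 17 of 22 such cells lie between 3 and 8.

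Carriers were compared with other cells for the matrix genes Spp1 and Col1a1. Spp1 ran from 0 to 330812 CPM with a median of 36793 in the 26 carriers, against 0 to 127189 CPM with a median of 1.11 in the 65 other cells. Of the carriers, 24 had Spp1 at 1000 CPM or more, as did 7 of the 65 other cells. The 2 carriers with Spp1 at 0, CD61+ cells 2 and 5, had Adipoq, an adipocyte and reticular cell gene, at 4258 and 6427 CPM. Col1a1 ran from 0 to 25753 CPM with a median of 1199 in carriers and from 0 to 2386 CPM with a median of 50.0 in the other cells. At 1000 CPM or more of Col1a1 there were 14 carriers and 1 other cell, the other cell being a VCAM1+ cell at 2386 CPM. All 4 CD61- carriers were below that level, at 649, 282, 151 and 8.16 CPM of Col1a1. Without VCAM1+ cell 5 the highest carrier was at 14135 CPM of Col1a1.

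The rank correlation of family CPM with Spp1 was 0.65 and with Col1a1 0.56 over all 91 cells, of which 61 were at 0 for the family. Within CD61+ cells it was 0.58 with Spp1 and 0.54 with Col1a1, and within CD61- cells 0.53 and 0.30. In the 30 cells with a family count it was 0.22 with Spp1 and 0.11 with Col1a1. Pearson's r on log2(CPM + 1) was 0.70 with Spp1 and 0.55 with Col1a1 over the 91 cells, and 0.47 and 0.20 in the 30 cells with a count. The values over all cells thus lean on the cells at 0. Both values of a cell share its total count as denominator.

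**Figure D4:**
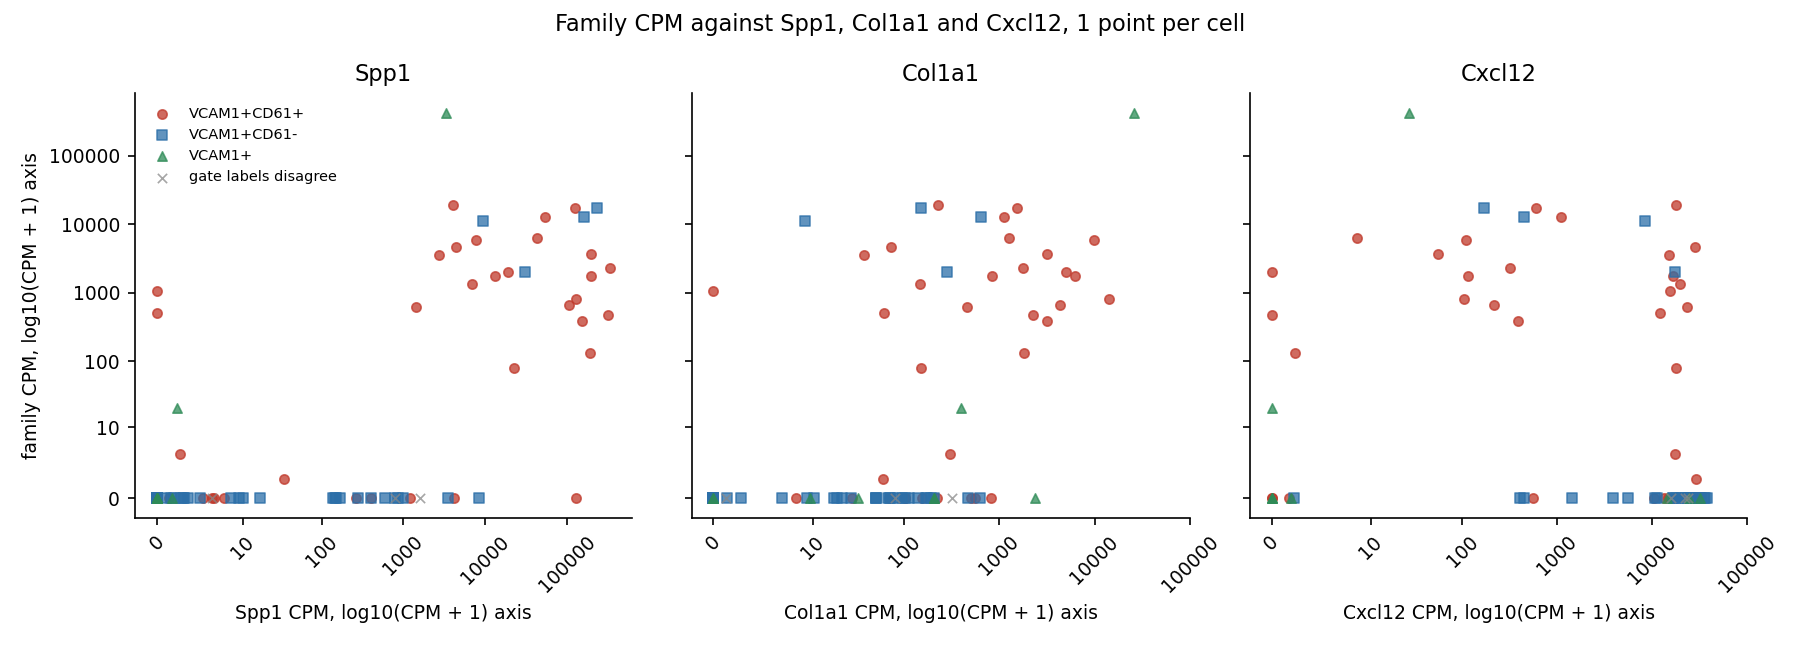
Family CPM against Spp1, Col1a1 and Cxcl12 CPM, 1 point per cell, coloured by gate, on log10(CPM + 1) axes. Carriers lie at high Spp1 with the exception of 2 cells at 0, and they form groups at low and at high Cxcl12.

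Carriers fell into groups by Cxcl12. In 16 carriers Cxcl12 was at 1101 CPM or less, and in 10 it was at 8396 CPM or more, with none between. The 16 low carriers were 13 CD61+ cells, 2 CD61- cells and VCAM1+ cell 5, and the 10 high carriers were 8 CD61+ and 2 CD61- cells. Family CPM ran from 134 to 426548 with a median of 3006 in the low carriers, and from 510 to 19338 with a median of 1897 in the high carriers, so the levels overlapped. Without VCAM1+ cell 5 the low carriers had a median of 2343 CPM and a highest value of 17481 CPM. Spp1 had a median of 141015 CPM in the low carriers and 4237 CPM in the high ones, and Col1a1 a median of 2734 CPM and 109 CPM. CD200 intensity had a median of 3890 in the low carriers and 2359 in the high ones. Lepr, the leptin receptor of marrow reticular cells, was counted in 12 of 16 low and 10 of 10 high carriers. These groups were set after the values were seen.

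Clustering of the 88 cells with a gate, without the 3 family genes, placed most carriers with osteolineage-like cells. Cluster 2, with 17 cells, and cluster 6, with 6 cells, were called osteolineage-like from markers such as Spp1, Col1a1 and Ifitm5 in cluster 2 and Spp1, Alpl and Wif1 in cluster 6. They held 21 of 26 carriers and 95.9% of the summed per-cell family CPM. Without VCAM1+ cell 5 that share was 82.6%. Family CPM had a median of 2343 (0 to 426548) in cluster 2 and 2788 (78.3 to 11226) in cluster 6, ranges that overlap. Without VCAM1+ cell 5, cluster 2 had a median of 2193 CPM and a highest value of 17481 CPM. The median Cxcl12 level was 110 CPM in cluster 2 and 17044 CPM in cluster 6. Cluster 2 held 16 of the carriers and cluster 6 held 5. Other listed genes set cluster 6 apart from a plain osteolineage pattern. In all 6 of its cells Dmp1 was at 0, Lepr was counted and Cxcl12 was between 8396 and 28461 CPM. Col1a1 ran from 8.16 to 830 CPM there. The name CAR-like, after Cxcl12-abundant reticular cells, went to clusters 1, 3 and 4 (30, 14 and 12 cells), and in cluster 3 the immediate-early genes Fos, Jun and Egr1 led. Carriers there were 1 of 30, 3 of 14 and 1 of 12 cells, and the median was 0 in each. The highest family CPM was 510, 19338 and 1059 in these clusters. The cell at 19338 CPM was CD61+ cell 31, the second highest of the series. Cluster 5, with 9 cells led by Ly6a, Egfl7 and Ly6c1, held no carrier and was left without a name because its cells were mixed. Cdh5 was counted in 4 of these 9 cells, Ptprc in 3 and Col1a2 in 5. Its 1 cell with a family count was VCAM1+ cell 9, with Cdh5 at 0. All 4 CD61- carriers were in clusters 2 and 6.

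CD200, an immunoglobulin family membrane protein, was higher at the surface of carriers. CD200 intensity ran from 118 to 7834 with a median of 3495 in the 26 carriers, against -112 to 3612 with a median of 337 in the 65 other cells. At an intensity of 2000 or more, a level chosen after the values were seen, there were 25 cells, and 21 of these were carriers. The rank correlation of family CPM with CD200 was 0.66 over 91 cells, 0.57 in CD61+ cells and 0.50 in CD61- cells. In the plates it was 0.55 and 0.61 for CD61+ cells and 0.42 and 0.58 for CD61- cells with 2 carriers each. All other CD61- cells were tied at 0 for the family. In the 30 cells with a count the correlation was 0.33. Its own gene, Cd200, had a rho of 0.47 with the family over the 91 cells and took place 54 of 6899 genes.

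CD61 intensity, which set the gates, had a lower correlation with the family within each gate than over all cells. The rank correlation of family CPM with CD61 was 0.49 over 91 cells, 0.12 within CD61+ cells and 0.18 within CD61- cells. In CD61+ cells, CD61 intensity ran from 1611 to 3739 with a median of 2060 in carriers and from 1567 to 2737 with a median of 1931 in the others, so the ranges overlapped. By plate it was 0.14 and 0.04 for CD61+ cells, and -0.003 and 0.46 for CD61- cells with 2 carriers each.

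**Figure D5:**
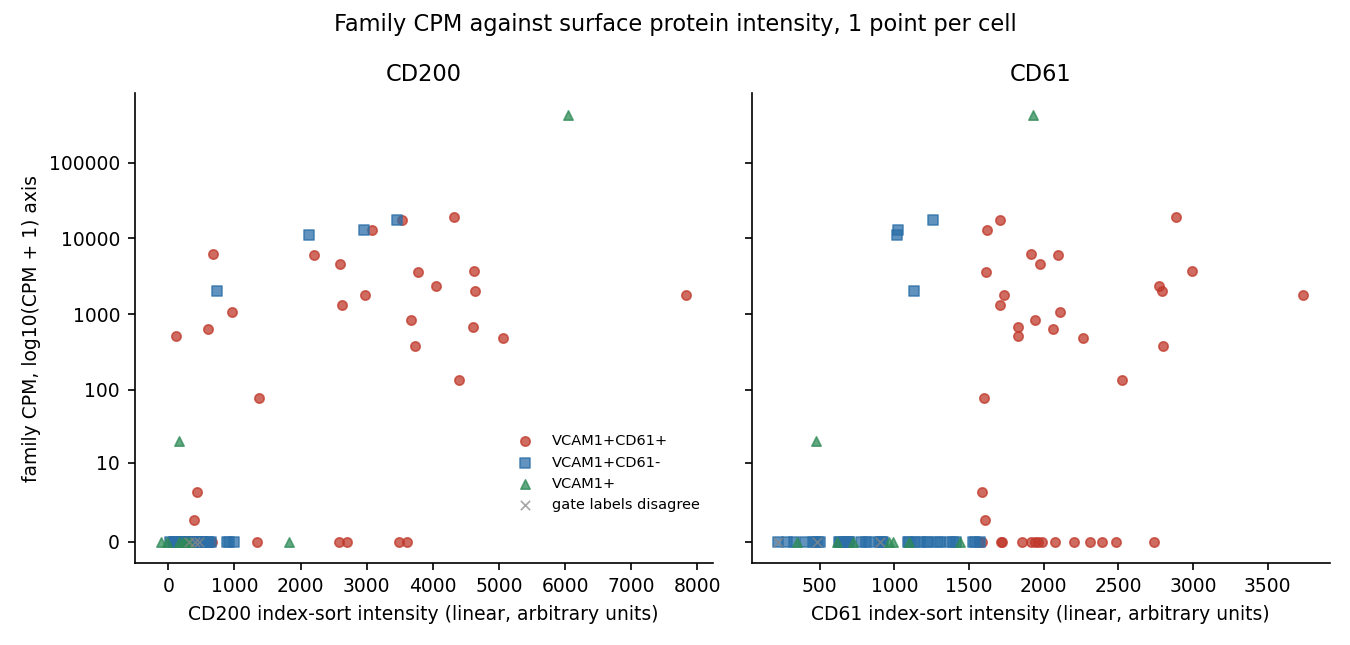
Family CPM on a log10(CPM + 1) axis against the index-sort intensity of CD200 (left) and CD61 (right), 1 point per cell. Carriers lie mostly above a CD200 intensity of 2000, and within the CD61+ gate they spread over the range of CD61.

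Depth and scatter were set beside the carrier status. Total counts had a median of 2002640 in carriers and 2072050 in the others, and genes per cell, as deposited, a median of 4558 and 4334. Forward scatter width ran from 79499 to 102319 with a median of 85112 in carriers and from 76752 to 98911 with a median of 82178 in the others. Forward scatter area had a median of 147302 in carriers and 116027 in the others, and of 148309 and 137528 within CD61+ cells. No doublet caller was run, and the part of scatter in these results was not tested.

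Marker sums of other cell types were also compared between carriers and other cells. The 13 listed osteolineage genes other than the family summed to 2497 to 351319 CPM in carriers, with a median of 55813, and to 0 to 149006 CPM in the others, with a median of 5905. The 13 CAR markers had a median sum of 745 CPM in carriers (104 to 34922) and 34295 CPM in the others (0.255 to 58508). These sums lean on their most abundant genes. Spp1 alone had a median of 36793 CPM in carriers, and Cxcl12 alone had 418 CPM in carriers and 21801 CPM in the others. The PDGF receptor gene Pdgfra, a CAR marker, was counted in 24 of 26 carriers. Its rho with the family was 0.16, while the other CAR markers had negative values. The 10 endothelial markers summed to a median of 0 CPM in carriers, 454 at most. Of these markers, Cdh5, Kdr, Plvap, Emcn and Tek were at 0 in every carrier. Flt1 was counted in 5 carriers, Tie1 in 4, Pecam1 in 2, and Egfl7 and Ly6c1 in 1 each. The 9 fibroblast markers had a median sum of 2296 CPM in carriers and 649 CPM in the others, with Clec3b at 0 in every carrier and Gsn counted in 25 of 26. Of 5 chondrocyte markers 3 were summed, with a median sum of 379 CPM in carriers and 0 CPM in the others, and Comp was counted in 22 carriers and Col2a1 in 13. The smooth muscle and pericyte, Schwann cell, blood cell, erythroid, megakaryocyte and neutrophil lists each had a median of 0 CPM in carriers, although the erythroid list reached 11258 CPM in 1 carrier. The osteoclast list had a median of 120 CPM in carriers and 43.8 CPM in the others, with Ctsk counted in 21 carriers and Mmp9 in 1. The part of these differences in the carrier status was not tested.

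Genes whose pattern over the cells was most like the family were ranked by rho with summed family CPM among 6899 genes counted in at least 25% of cells and with a mean of at least 10 CPM. Cpe, which encodes the prohormone-processing carboxypeptidase E, came first with a rho of 0.78. It was counted in 22 of 26 carriers and in 2 of the 65 other cells, the closest match to the carrier pattern in this list of 10. Ptgis, which encodes prostacyclin synthase, followed at 0.71 (21 carriers and 9 others), then Cyfip2, of an actin-regulating complex, at 0.70 (22 and 6). Cadm1, a cell adhesion molecule, had a rho of 0.68, and Pak1, a kinase, had 0.67. Alpl, the alkaline phosphatase of mineralising cells, had 0.66, and Spp1 was seventh. Postn, which encodes periostin, had a rho of 0.64 (18 carriers and 5 others), Lrp4, a low-density lipoprotein receptor relative, 0.64 (25 and 32), and Vdr, the vitamin D receptor, 0.63 (23 and 19). Postn and Pak1 were at 0 in VCAM1+ cell 5, whereas Cpe was at 1290 CPM there. Col1a1 was at place 25 and Ibsp at place 225 with a rho of 0.31. In CD61+ cells alone, 6 of the 10 genes stayed among the first 10, where Lum, which encodes lumican, led at 0.74.

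Lists of genes with known links to osteocalcin were compared between the CD61+ and CD61- sums, where the median log2 ratio of all 14063 genes was 0.01. Among bone matrix genes, 6 of 13 were at least 2-fold higher and 0 lower in CD61+ cells (19.4% and 17.3% of all genes), with a median log2 ratio of 0.86. Col1a1 had 2274 CPM in the CD61+ sum and 111 CPM in the CD61- sum, a log2 ratio of 4.36, and Spp1 had 67350 and 12267 CPM, a log2 ratio of 2.46. CD61- cell 29 held 51.6% of the Spp1 counts of its gate, and without it the log2 ratio was 3.46. Ibsp, in contrast, had 7359 and 5010 CPM, a log2 ratio of 0.56. Ifitm5, an osteoblast membrane protein gene, was counted in 12 of 26 carriers and in 15 of 91 cells in all, with a log2 ratio of 3.74, and 6.91 without CD61- cell 2.

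Of the transcription factors listed as regulators of osteocalcin, 12 were compared, of which 4 were at least 2-fold higher and 2 at least 2-fold lower in the CD61+ sum, with a median log2 ratio of 0.58. Of all genes compared, 19.4% were higher and 17.3% lower by this rule, so the number lower was near the background. The higher ones included Dlx3 (3.92), Vdr (2.80) and Cbfb, the Runx partner (1.77), each given as a log2 ratio. Dlx3, a homeobox factor, was counted in 11 of 26 carriers and 12 of 91 cells in all, of which CD61- cell 2 was the only CD61- cell, and Sp7, the osterix gene, in 20 carriers and 35 cells in all. Runx2, whose core motif is printed above, was counted in all 26 carriers and in 74 of 91 cells, with a log2 ratio of 0.94. The lower ones were Cebpb, at 3.47 CPM in the CD61+ sum and 191 CPM in the CD61- sum (log2 ratios of -5.78, and -5.18 without CD61- cell 37), and Cebpd, at 123 and 372 CPM. Atf4 and Dlx5 were within 2-fold, at log2 ratios of -0.16 and 0.04, the second being 0.70 without CD61- cell 33.

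The genes of the vitamin K cycle, which carboxylate osteocalcin, and of propeptide cleavage were near the background. Of 7 compared, 1 was higher and 2 were lower by at least 2-fold, where 63.3% of all genes were within 2-fold, with a median log2 ratio of 0.05. Ggcx, the carboxylase, had 21.8 CPM in the CD61+ sum and 21.1 CPM in the CD61- sum and was counted in 18 of 26 carriers. Vkorc1, the vitamin K epoxide reductase, had 551 CPM in the CD61+ sum and 280 CPM in the CD61- sum, and Vkorc1l1, its relative, had 37.5 and 4.65 CPM, a log2 ratio of 3.01, and 2.34 without CD61+ cell 36. The lower ones included Nqo1, a quinone reductase, at a log2 ratio of -1.09 that was within 2-fold when any one of 4 cells was left out and -2.08 without CD61+ cell 24. Furin, the protease that cleaves the propeptide, had a log2 ratio of -0.59.

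Among the other genes for proteins with carboxylated glutamates, 1 of 8 was at least 2-fold higher and 2 lower, against 19.4% and 17.3% of all genes, with a median log2 ratio of -0.57. Mgp, the matrix Gla protein gene, had 1327 CPM in the CD61+ sum and 3302 CPM in the CD61- sum, and it was counted in 4 of 26 carriers and 50 of 91 cells. Its rho with the family was -0.56, the opposite sign to that of the bone matrix genes above. Gas6, a Gla protein ligand of TAM receptors, had 917 and 1554 CPM with a rho of -0.36. F9, a coagulation factor gene, was the other lower gene, and Prrg3 the higher one, both below 1 CPM and both moved over 1.5 times without CD61- cell 35.

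Of 6 osteocyte genes, 3 passed the filter on low counts, of which 2 were at least 2-fold higher and 1 lower. By this rule 19.4% of all genes were higher and 17.3% lower, and 3 genes are too few to compare with these shares. Dmp1 had 199 CPM in the CD61+ sum and 44.6 CPM in the CD61- sum and was counted in 13 of 26 carriers and 16 of 91 cells. Its log2 ratio was 2.16, and 5.32 without CD61- cell 29. Mepe, a matrix phosphoglycoprotein gene, had 11.9 CPM in the CD61+ sum and no count in CD61- cells, a log2 ratio of at least 8.51, where the CD61- sum was set to 3 counts. Its 5 cells with a count were all carriers. Phex, a peptidase gene, had 11.96 and 44.1 CPM. Of 4 genes listed for reception and activation of osteocalcin 1 was compared, Insr, the insulin receptor gene, with a log2 ratio of -0.09, and -0.87 without CD61+ cell 32.

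Genes near the family on the chromosome were also compared. Of 17 other annotated genes within 100 kb, 11 were compared, with a median log2 ratio of -0.09 and a median rho with the family of 0.11, against 0.03 for all genes. At least 2-fold higher in CD61+ cells were Sema4a, a semaphorin gene, at a log2 ratio of 3.51, and Gm42814, a pseudogene, at 1.44. Gm38392 was lower at -1.58. These 2 higher and 1 lower of 11 genes compare with 19.4% and 17.3% of all genes, so neither share was above the background. Without CD61+ cell 35 Sema4a was at 1.91, without CD61- cell 7 Gm42814 was at 2.63, and without CD61+ cell 1 Gm38392 was at -2.33. Leaving out 1 cell put Gm38392 within 2-fold. Paqr6 lies 75 bp from Bglap3 on the other strand, with a rho of -0.10, and Pmf1 lies 9679 bp upstream of Bglap on the same strand, with a rho of -0.14. Both were at 0 in VCAM1+ cell 5.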

How the data were processed

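The authors deposited expected counts of reads for each gene in each cell, all of them whole numbers. They used kallisto 0.43.0 and R 3.5.1 on mm10, per the submitters' processing notes. Which annotation they used was not given in the sources used here. Their deposited read count matched the summed column in 91 of 91 cells. The genes per cell are a count as deposited. CD200, CD61 and scatter values are linear index-sort intensity values, as deposited. Of the per-cell table, 40 columns were not used. Identical cells numbered 0.

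Counts were divided by the total of the cell or gate (CPM). Comparisons of gates took genes found in 5 or more cells with 10 or more counts in the gates' plates together (14063 genes). Intervals were exact Poisson for sums, binomial for ratios and Clopper-Pearson for shares. The 88 cells with a gate were clustered without the family, on the 2000 genes of highest variance in log2(CPM + 1) (15 components, 10 neighbours, Leiden resolution 1; scanpy 1.11.5, igraph 0.11.9, Python 3.11.15). A cluster took the name of the marker list with most genes among its 10 leading genes, if 3 of its markers had a count in most cells. By this rule cluster 5 was endothelial-like, a name not used because Cdh5 was at 0 in 5 of its cells. Scaling alternatives used edgeR 4.0.16 and DESeq2 1.42.0 (R 4.3.3). Words of 31 bases and coding sequences came from GENCODE vM21, and the promoter from RefSeq.

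Genes named are the 10 with the highest rho with the family among those counted in at least 25% of cells at a mean of at least 10 CPM, Spp1, Col1a1, the lists and the genes within 100 kb. Cxcl12, Adipoq, Lepr and the leading genes of VCAM1+ cell 5 were chosen after their values were seen. Some genes of the lists are counted but not reported here by name. The members, lists and markers were chosen with earlier results of these data known. In simulated Poisson counts of 16580 genes, 200 of 200 genes changed 4-fold up or down between the gates were recovered. So were 50 of 50 genes built to follow the family. Only genes with at least 1000 counts were changed, with no spread between cells beyond counting error.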

Additional observations from a re-analysis of the deposited data

Results flagged for a closer look

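VCAM1+ cell 5 lay apart from the other 8 VCAM1+ cells, by a gap that takes up most of the range of the group, in 7 of the 8 quantities examined in that group. For normally distributed values, chance gives such a gap in about 1 in 20 groups. That rate does not hold for values that are mostly 0, as the 3 members, their sum and Spp1 were here, and the 7 quantities come from 1 cell. Bglap was at 297552 CPM in this cell and at 0 in the other 8. Bglap2 was at 120574 CPM, against 0 in the other 8. Bglap3 was at 8423 CPM, against 19.9 CPM at most in the others. The family sum was 426548 CPM, against the same 19.9 CPM. Spp1 was at 3349 CPM, against 0.758 CPM at most. Col1a1 was at 25753 CPM, against 2386 CPM at most and a median of 206 CPM. CD200 intensity was 6042, against 1818 at most and a median of 217. CD61 intensity, at 1931 against 1438 at most, did not lie apart in this way. VCAM1 intensity, at -89, was the lowest of the 91 cells. The family took 42.7% of the counts of this cell, and its total without the family was 3461951 counts, within the range of the other cells.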

How the results depend on the processing

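Gates are 1 sample each, plates and gates coincide, and the sums rest on few cells; thinning left the number of carriers in each gate as it was, while the split of reads between near-identical members limits each single member. The log2 ratio of Bglap (0.43) was -0.49 without CD61- plate 1, 2.03 without CD61- plate 2, 0.61 and 0.24 without CD61+ plates 1 and 2, 0.71 by the mean of per-cell CPM, 0.52 with totals that omit the family, Spp1 and Col1a1, 0.70 thinned and 0.39 in cells of at least 1000000 counts. That of Bglap2 (1.10) was 0.63, 1.57, 1.30, 1.18, 1.29 and 1.14 for CD61- plates 1 and 2 left out, the mean, those totals, thinning and deep cells, and 1.08 with DESeq2 size factors. That of Bglap3 (1.16) was 0.79 and 1.52 without CD61- plates 1 and 2, 1.37 and 0.92 without CD61+ plates 1 and 2, 1.36 by the mean, 1.25 with those totals and 1.26 thinned. Leaving out each cell gave 0.16 to 1.33, 0.71 to 1.61 and 0.94 to 1.76 for Bglap, Bglap2 and Bglap3. The Bglap2 share of the pair (31.8%) was 62.3% as a median over cells, 62.3% in CD61+, 51.1% in CD61- and 28.8% in VCAM1+ cells alone, and 31.2 to 57.7% leaving out each cell. The difference in the share of carriers (43.9 percentage points, CD61+ minus CD61-) was 25.9 at 1000 CPM, 0.19 at 10000 CPM, and 26.96 and 22.8 for CD61+ plate 1 against CD61- plates 1 and 2. Correlations in cells with a count, CD61+ cells and CD61- cells stand in the report; those that moved by over 0.1 were 0.22 and 0.53 for Spp1, 0.11 and 0.30 for Col1a1, 0.33 and 0.50 for CD200, each in cells with a count and in CD61- cells, and 0.031, 0.12 and 0.18 for CD61 in cells with a count, CD61+ and CD61- cells. Leaving out each cell gave 0.64 to 0.68, 0.54 to 0.59, 0.64 to 0.69 and 0.48 to 0.52. The osteolineage-like share (95.9%) was 82.6 to 99.3% leaving out each cell. The direction turned for the Bglap ratio without CD61- plate 1 and for no other value named here; the cause was not tested. For the list counts and the genes most like the family, 39 alternatives stayed within 1.5 times and 12 did not. No paired analysis was possible because the result comes from no test. The 88 cells with a gate, an alternative chosen after seeing the data, gave rho of 0.66, 0.57, 0.66 and 0.48. Leaving out each cell for the listed genes was also chosen after seeing the data, and its effects stand beside the values in the report.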
